A study of Homo sapiens with 3 samples.

Results

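The genes described here are the replication-dependent histone genes, taken as every gene whose symbol in the deposited table starts with HIST1H, HIST2H, HIST3H or HIST4H. The rule found 89 of the 57268 genes in the table. They comprised 8 genes of the linker histone H1, 22 of H2A, 26 of H2B, 17 of H3 and 16 of H4, and 18 of the 89 are annotated as pseudogenes. By the GENCODE release 29 annotation, 65 lie on chromosome 6, 21 on chromosome 1, 2 on chromosome 13 and 1 on chromosome 12.

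Histone proteins package DNA into nucleosomes. H3 and H4 form the core, dimers of H2A and H2B complete it, and H1 binds the linker DNA between nucleosomes. The replication-dependent genes supply most of these proteins during S phase. Their messenger RNAs as a rule have no introns and end in a short stem-loop in place of a poly(A) tail, which the stem-loop binding protein SLBP recognises. Some of the genes also give longer, polyadenylated transcripts, mostly known from cells outside S phase.

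RNA was sequenced from HEK293T cells, a line derived from human embryonic kidney, in 3 libraries. In the first, cells overexpressed ADAR2 together with SRSF9. In the second, cells overexpressed ADAR2 alone. The control was wild type for both, with no overexpression. ADAR2, encoded by ADARB1, converts adenosine to inosine in double-stranded RNA, and SRSF9 belongs to the SR family of splicing factors. According to the design text, the series was made to examine how SRSF9 acts on editing by ADAR2, whereas the values used here are reads per gene. There was 1 library per group, so no difference has a replicate check and no test was possible. Every interval given is a 95% interval of counting error only. In bulk RNA, fewer cells in S phase and less histone RNA per cell cannot be told apart. The ADAR2 library enters 2 of the 3 comparisons and the control also enters 2, so the comparisons are not independent.

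The libraries held 97875935 reads for ADAR2+SRSF9, 132887974 for ADAR2 and 152878282 for the control. Levels are CPM, reads per 1000000, on library sizes scaled by TMM. A count of 3 reads, taken as the limit of detection, equals 0.0313 CPM for ADAR2+SRSF9, 0.0223 CPM for ADAR2 and 0.0194 CPM for the control. The overexpressed genes followed the labels. ADARB1 stood at 13647 CPM for ADAR2+SRSF9, 16100 CPM for ADAR2 and 114 CPM for the control, and SRSF9 at 18288 CPM for ADAR2+SRSF9, 369 CPM for ADAR2 and 372 CPM for the control. All 16 HEK293 identity genes examined were above a mean of 1 CPM and none differed by 1.5-fold. Of the markers of other cells, 1 of 9 for fibroblasts, 5 of 10 for blood and 2 of 10 for other epithelial lines passed a mean of 1 CPM. Among them HBB, a globin gene, stood at 383 CPM with ADAR2+SRSF9, against 1.15 CPM with ADAR2 and 1.44 CPM in the control. The blood markers summed to 400.0 CPM with ADAR2+SRSF9, 17.8 CPM with ADAR2 and 15.5 CPM in the control, while MS4A1, THY1, KRT5 and KRT6A had 0 reads in every library. The part of the HBB difference in the histone values was not tested.

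The stem-loop that marks these messages was searched for in the annotated transcripts of each gene. It was found in 34 of the 89 genes (38.2%), against 3 of 19869 other protein-coding genes (0.0151%). It occurred in 5 forms of 16 bases, shown because their letters divide the histone types. Capitals mark the 2 arms of the stem and lower case the loop.

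Form in 18 genes, 6 of H2A, 9 of H2B and 3 of H3: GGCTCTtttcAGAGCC
Form in 5 genes, 3 of H2B and 2 of H3: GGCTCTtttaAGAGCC
Form in 5 genes, all of H4: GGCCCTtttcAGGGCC
Form in 3 genes, all of H4: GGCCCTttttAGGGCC
Form in 3 genes, 1 of H2A and 2 of H2B: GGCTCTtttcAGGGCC

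The stem of 6 pairs was complete in 4 of the forms, and the form in HIST1H2AG, HIST2H2BC and HIST2H2BD had 1 G-T pair among the 6. No form was shared between H4 and the other types. Many annotated transcripts of these genes end at the stop codon, so the absence of a match says only that these letters are not in the annotated transcript. This holds for HIST1H2BK and HIST1H1C, the members with the most reads, whose models cover 381 and 642 bases.

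Promoters from 250 bases before to 50 bases after the start were matched by symbol for 61 of the genes (RefSeq, GRCh38.p14). On either strand, the TATA box TATAAA was present in 68.9% of these genes against 13.9% of 27244 other genes. The CCAAT box CCAAT was present in 83.6% against 39.6%, and the octamer ATTTGCAT in 34.4% against 2.12%. A gene counted when any of its promoter windows held the motif. The types differed in the letters their promoters held. The octamer was found in 68.8% of the H2A and 69.2% of the H2B promoters, in 7.69% of those of H3 and in none of the 6 H1 and 13 H4 promoters. Several H2A and H2B genes have windows that overlap on opposite strands, such as HIST1H2AG (chr6:27132793-27133092) and HIST1H2BJ (chr6:27132746-27133045). The same match then counts for both types, so their shares are not independent. CCAAT was in every matched promoter of H1, H2A, H2B and H3 and in 23.1% of those of H4. The promoters of 3 genes described below are printed here with each match in capitals. HIST1H4C, also described below, had no matched promoter. HIST1H2AB (chr6:26033569-26033868, minus strand) and HIST1H2AC (chr6:26123922-26124221, plus strand) hold all 3 motifs, whereas HIST1H4E (chr6:26204360-26204659, plus strand) holds none of them.

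HIST1H2AB: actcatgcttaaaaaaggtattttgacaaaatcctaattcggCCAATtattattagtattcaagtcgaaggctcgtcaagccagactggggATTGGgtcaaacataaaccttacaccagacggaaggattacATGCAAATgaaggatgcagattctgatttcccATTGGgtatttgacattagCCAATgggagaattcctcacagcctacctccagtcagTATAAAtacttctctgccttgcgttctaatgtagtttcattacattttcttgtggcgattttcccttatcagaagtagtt
HIST1H2AC: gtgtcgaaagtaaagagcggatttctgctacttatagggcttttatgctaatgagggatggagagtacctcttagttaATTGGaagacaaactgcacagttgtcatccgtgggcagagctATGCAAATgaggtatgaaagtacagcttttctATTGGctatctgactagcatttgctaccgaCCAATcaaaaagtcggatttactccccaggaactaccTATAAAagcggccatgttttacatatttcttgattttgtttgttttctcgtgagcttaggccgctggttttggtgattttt
HIST1H4E: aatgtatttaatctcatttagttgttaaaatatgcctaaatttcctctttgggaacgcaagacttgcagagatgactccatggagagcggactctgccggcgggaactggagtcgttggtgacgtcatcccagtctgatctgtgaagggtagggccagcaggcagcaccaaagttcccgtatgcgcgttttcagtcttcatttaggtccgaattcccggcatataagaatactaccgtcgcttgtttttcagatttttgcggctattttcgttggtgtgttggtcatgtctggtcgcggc

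The 89 genes together had 30753 reads in the ADAR2+SRSF9 library, 41274 in the ADAR2 library and 53598 in the control. These are 0.0314% of all reads with ADAR2+SRSF9, 0.0311% with ADAR2 and 0.0351% in the control. Their summed level was 321 CPM with ADAR2+SRSF9, 307 CPM with ADAR2 and 347 CPM in the control. The sum was therefore lowest in the ADAR2 library, at 0.886 of the control (0.875 to 0.898). With ADAR2+SRSF9 it was 1.04 times the ADAR2 library (1.03 to 1.06) and 0.925 of the control (0.912 to 0.938).

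A few genes supplied most of these reads. HIST1H2BK alone held 21.7% of them in the ADAR2+SRSF9 library, 23.2% in the ADAR2 library and 23.2% in the control. The 6 genes with the most reads (HIST1H2BK, HIST1H1C, HIST2H2AA3, HIST2H2AA4, HIST2H4A and HIST2H4B) held 66.7% with ADAR2+SRSF9, 71.3% with ADAR2 and 68.1% in the control. Among the 89, 25 reached a mean of 1 CPM over the 3 libraries and are called measured below, 8 of them at 10 CPM or more. A further 30 lay at 0.1 to under 1 CPM, 25 had reads but less than 0.1 CPM, and 9 had 0 reads in every library. By type, 1 of 8 H1, 5 of 22 H2A, 8 of 26 H2B, 4 of 17 H3 and 7 of 16 H4 genes were measured. Shares and levels here count reads and are not divided by transcript length, so they do not rank the genes by number of molecules.

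Some members cannot be told apart by their reads. HIST2H4A and HIST2H4B share all of their 50-base stretches, and their counts differed by 15 reads in the ADAR2+SRSF9 library, 18 in the ADAR2 library and 3 in the control. If their reads had been divided evenly at random, the SD of the difference would be 60.3 reads with ADAR2+SRSF9, 75.6 with ADAR2 and 79.4 in the control, and each difference was smaller than that. Whether a read that matches both copies was counted once, divided or counted at both genes is not given in the sources used here. If it was counted at both, this pair enters the H4 sum and the sum over all members 2 times. The copies HIST2H2AA3 and HIST2H2AA4 differed by 152 reads with ADAR2+SRSF9, 151 with ADAR2 and 135 in the control, each more than the SD of an even split (77.3 reads with ADAR2+SRSF9, 83.9 with ADAR2 and 92.4 in the control). HIST2H3A and HIST2H3C differed by 36 reads with ADAR2+SRSF9, 28 with ADAR2 and 1 in the control, where that SD is 32.6 reads with ADAR2+SRSF9, 35.2 with ADAR2 and 38.0 in the control. These pairs, and HIST1H4J with HIST1H4K, share most of their sequence, and the members of each pair are uncertain as single genes. HIST1H2BK shares 74.1% of its 50-base stretches with other genes, mostly H2BFS (61.5%). The H4 and H3 copies of the second cluster overlap on opposite strands (HIST2H4A with HIST2H3C, HIST2H4B with HIST2H3A), and whether counting used the strand is not given in the sources used here.

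**Figure D1:**
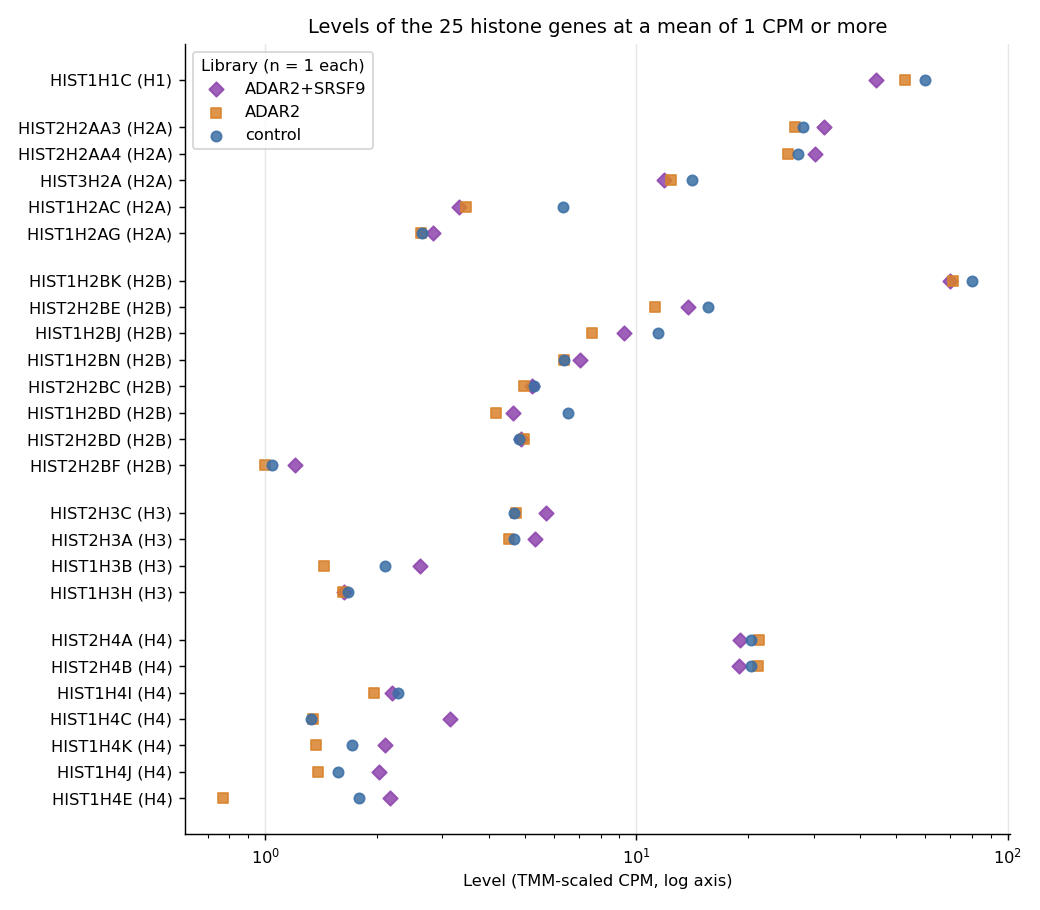
Level of each of the 25 histone genes with a mean of 1 CPM or more (rows, grouped by histone type) in the 3 libraries, as TMM-scaled CPM on a log axis, with 1 library per group. The ADAR2 square is the lowest of the 3 points for 16 of the 25 genes; HIST1H4E is furthest left at 0.767 CPM in that library, and HIST1H4C is apart to the right with ADAR2+SRSF9 at 3.15 CPM.

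Summed over its 17 genes, H3 stood at 18.1 CPM with ADAR2+SRSF9, 14.2 CPM with ADAR2 and 16.1 CPM in the control, the smallest total of the 5 types. The ADAR2 library was at 0.880 of the control (0.829 to 0.934), and the ADAR2+SRSF9 library was 1.28 times the ADAR2 library (1.20 to 1.36) and 1.12 times the control (1.06 to 1.20). Most of these reads came from the copies HIST2H3C, with 5.72 CPM for ADAR2+SRSF9, 4.73 CPM for ADAR2 and 4.68 CPM for the control, and HIST2H3A, with 5.34 CPM for ADAR2+SRSF9, 4.52 CPM for ADAR2 and 4.69 CPM for the control. Without that pair, a set trimmed after its values were seen, the ADAR2 ratio to control was 0.731 (0.662 to 0.806) and the ADAR2+SRSF9 ratio to ADAR2 was 1.43 (1.28 to 1.59). HIST1H3B had 2.61 CPM with ADAR2+SRSF9, 1.44 CPM with ADAR2 and 2.10 CPM in the control. HIST1H3H, also H3, was level within counting error, at 1.63 CPM with ADAR2+SRSF9, 1.62 CPM with ADAR2 and 1.67 CPM in the control.

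H4 gave the most level total of the 5 types. All 16 H4 genes summed to 51.6 CPM with ADAR2+SRSF9, 51.1 CPM with ADAR2 and 51.7 CPM in the control. The 3 ratios between these sums were within counting error of 1, at 0.989 for ADAR2 over control (0.958 to 1.02), 1.01 for ADAR2+SRSF9 over ADAR2 (0.972 to 1.05) and 0.998 for ADAR2+SRSF9 over control (0.963 to 1.03). With 1 copy of each near-identical pair, chosen after seeing the data, the H4 log2 ratio of ADAR2+SRSF9 over ADAR2 was 0.10 (0.03 to 0.17), above counting error, and that of ADAR2 over control was -0.05 (-0.12 to 0.01). The total was mostly the pair HIST2H4A and HIST2H4B. HIST2H4A had 19.0 CPM with ADAR2+SRSF9, 21.4 CPM with ADAR2 and 20.4 CPM in the control, and HIST2H4B had 18.9 CPM with ADAR2+SRSF9, 21.2 CPM with ADAR2 and 20.4 CPM in the control. HIST2H4A with ADAR2+SRSF9 was at 0.890 of the ADAR2 library (0.838 to 0.944) and with ADAR2 at 1.05 times the control (0.996 to 1.10), the reverse of the direction of most members. The other 14 H4 genes, a set trimmed after its values were seen, summed to 13.7 CPM with ADAR2+SRSF9, 8.50 CPM with ADAR2 and 10.9 CPM in the control. Their ADAR2 ratio to control was 0.779 (0.722 to 0.841), and their ADAR2+SRSF9 ratio was 1.61 to ADAR2 (1.49 to 1.75) and 1.26 to control (1.17 to 1.35).

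HIST1H4E and HIST1H4C, which code for the same H4 protein, were the measured members that passed 2-fold. HIST1H4E had 208 reads (2.17 CPM) with ADAR2+SRSF9, 103 reads (0.767 CPM) with ADAR2 and 276 reads (1.79 CPM) in the control. It was thus low in the ADAR2 library alone, at 0.429 of the control (0.339 to 0.540), with ADAR2+SRSF9 at 2.83 times ADAR2 (2.22 to 3.62) and 1.21 times control (1.01 to 1.46). HIST1H4C had 302 reads (3.15 CPM) with ADAR2+SRSF9, 180 reads (1.34 CPM) with ADAR2 and 205 reads (1.33 CPM) in the control. It was high in the ADAR2+SRSF9 library alone, at 2.35 times ADAR2 (1.95 to 2.84) and 2.37 times control (1.98 to 2.85), while ADAR2 over control was 1.01 (0.822 to 1.24). HIST1H4E carries the stem-loop of the H4 form in the list above, and neither gene shares a 50-base stretch with another gene. HIST1H4K and HIST1H4J, the near-identical pair, were also lowest with ADAR2 and highest with ADAR2+SRSF9, with HIST1H4K at 2.10 CPM with ADAR2+SRSF9, 1.37 CPM with ADAR2 and 1.72 CPM in the control. HIST1H4J had 2.02 CPM with ADAR2+SRSF9, 1.39 CPM with ADAR2 and 1.57 CPM in the control. HIST1H4I was level within counting error, at 2.19 CPM with ADAR2+SRSF9, 1.96 CPM with ADAR2 and 2.27 CPM in the control.

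Against a 2-fold call, which needs a mean of 1 CPM and an interval that excludes 1, the counts of members were small. With ADAR2 against the control, 1 of 25 measured members was lower (HIST1H4E) and 0 were higher, where 0.218% of the 16072 genes at that level were lower and 0.0684% higher. ADAR2+SRSF9 against ADAR2 gave 2 of 25 higher (HIST1H4C and HIST1H4E) and 0 lower, beside 0.292% and 0.212% of all genes. ADAR2+SRSF9 against the control gave 1 of 25 higher (HIST1H4C) and 0 lower, beside 0.305% and 0.255% of all genes. HIST1H4E and HIST1H4C lay at a mean of 1 to under 10 CPM. At that level 0.490% of genes were lower with ADAR2 than in the control. There 0.613% were higher with ADAR2+SRSF9 than with ADAR2, and 0.665% higher than in the control. Since no test applies, these shares describe the libraries. At 1.5-fold, ADAR2 against the control gave 4 lower members (HIST1H2BJ, HIST1H2BD, HIST1H2AC and HIST1H4E), 16% of the measured ones against 0.641% of all genes, and 0 higher ones, against 0.622%. ADAR2+SRSF9 against ADAR2 gave 4 higher (HIST1H3B, HIST1H4C, HIST1H4K and HIST1H4E), 16% against 0.89% of all genes, and 0 lower, against 2.53%. ADAR2+SRSF9 against the control gave 1 higher (HIST1H4C, beside 1.56% of all genes) and 1 lower (HIST1H2AC, beside 2.43% of all genes). All members called at 1.5-fold lay at 1 to under 10 CPM, a level of 17 members. There the 4 lower with ADAR2 were 23.5% of members against 1.68% of genes. The 4 higher with ADAR2+SRSF9 than with ADAR2 were 23.5% against 2.24%. Against the control, HIST1H4C made 5.88% against 3.92% higher, and HIST1H2AC 5.88% against 6.13% lower, both near the share of all genes.

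Of the dimer histones, H2A summed to 85.1 CPM with ADAR2+SRSF9, 73.7 CPM with ADAR2 and 82.0 CPM in the control. Its ADAR2 ratio to control was 0.899 (0.875 to 0.923), and its ADAR2+SRSF9 ratio was 1.15 to ADAR2 (1.12 to 1.19) and 1.04 to control (1.01 to 1.07). The last of these rests on the pair HIST2H2AA3 and HIST2H2AA4. HIST2H2AA3 had 31.9 CPM with ADAR2+SRSF9, 26.8 CPM with ADAR2 and 28.1 CPM in the control, and HIST2H2AA4 had 30.3 CPM with ADAR2+SRSF9, 25.7 CPM with ADAR2 and 27.2 CPM in the control. HIST2H2AA3 with ADAR2+SRSF9 was 1.19 times ADAR2 (1.13 to 1.25) and 1.14 times control (1.09 to 1.19). Without both copies, the ADAR2+SRSF9 sum was 22.9 CPM against 21.3 CPM with ADAR2 and 26.8 CPM in the control, so that it was 0.856 of the control (0.812 to 0.901). HIST3H2A, from the small cluster on chromosome 1, had 11.8 CPM with ADAR2+SRSF9, 12.4 CPM with ADAR2 and 14.1 CPM in the control, so that it was lower than the control in both, at 0.839 (0.780 to 0.902) with ADAR2+SRSF9 and 0.877 (0.822 to 0.935) with ADAR2.

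HIST1H2AC had the lowest ratios to control of the measured H2A genes. It had 318 reads (3.32 CPM) with ADAR2+SRSF9, 467 reads (3.48 CPM) with ADAR2 and 978 reads (6.33 CPM) in the control. Both overexpressing libraries were low and near each other: ADAR2+SRSF9 was at 0.524 of the control (0.460 to 0.595), ADAR2 at 0.549 of the control (0.491 to 0.614), and ADAR2+SRSF9 over ADAR2 was 0.954 (0.824 to 1.10). Its longest annotated transcript has 1668 bases, and its transcripts have up to 2 exons. HIST1H2AC is thus among the members with a long or spliced model. HIST1H2AG, also with a long model, had 2.84 CPM with ADAR2+SRSF9, 2.62 CPM with ADAR2 and 2.64 CPM in the control.

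H2B gave the largest total, 120.1 CPM with ADAR2+SRSF9, 115 CPM with ADAR2 and 136 CPM in the control. Its ADAR2 ratio to control, 0.844 (0.827 to 0.862), was the lowest of the 5 types, and its ADAR2+SRSF9 ratio was 1.05 to ADAR2 (1.02 to 1.07) and 0.883 to control (0.863 to 0.903). HIST1H2BK, with the most reads of any member, had 69.7 CPM with ADAR2+SRSF9, 71.3 CPM with ADAR2 and 80.3 CPM in the control. Both overexpressing libraries were thus below the control for this gene, ADAR2+SRSF9 at 0.868 (0.842 to 0.894) and ADAR2 at 0.888 (0.864 to 0.912). HIST2H2BE had 13.7 CPM with ADAR2+SRSF9, 11.2 CPM with ADAR2 and 15.6 CPM in the control. HIST1H2BJ had 9.26 CPM with ADAR2+SRSF9, 7.60 CPM with ADAR2 and 11.5 CPM in the control, and HIST1H2BD had 4.64 CPM with ADAR2+SRSF9, 4.17 CPM with ADAR2 and 6.53 CPM in the control. For these 3 genes ADAR2 was lowest and ADAR2+SRSF9 lay between, with ADAR2 ratios to control of 0.718 (0.673 to 0.766) for HIST2H2BE, 0.663 (0.613 to 0.716) for HIST1H2BJ and 0.639 (0.576 to 0.710) for HIST1H2BD.

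The other 4 measured H2B genes did not differ beyond counting error in any comparison. HIST1H2BN had 7.03 CPM with ADAR2+SRSF9, 6.36 CPM with ADAR2 and 6.40 CPM in the control, and it overlaps HIST1H2AK and HIST1H2AL. HIST2H2BF, with the lowest level of the measured members, had 1.20 CPM with ADAR2+SRSF9, 0.998 CPM with ADAR2 and 1.04 CPM in the control. HIST2H2BC, annotated as a pseudogene and overlapping the pseudogene HIST2H2BD on the opposite strand, had 5.23 CPM with ADAR2+SRSF9, 4.97 CPM with ADAR2 and 5.31 CPM in the control. HIST2H2BD itself had 4.87 CPM with ADAR2+SRSF9, 4.98 CPM with ADAR2 and 4.83 CPM in the control. The pseudogenes as a set of 18 summed to 11.2 CPM with ADAR2+SRSF9, 10.7 CPM with ADAR2 and 11.0 CPM in the control, and the 3 ratios between them were within counting error of 1.

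The linker histone H1 was lower with ADAR2+SRSF9 than in both other libraries. Its 8 genes summed to 45.9 CPM with ADAR2+SRSF9, 53.5 CPM with ADAR2 and 61.1 CPM in the control. The ADAR2+SRSF9 ratio was 0.858 to ADAR2 (0.826 to 0.891) and 0.752 to control (0.725 to 0.779), and the ADAR2 ratio to control was 0.876 (0.850 to 0.904). A single gene gave 4232 of the 4400 H1 reads with ADAR2+SRSF9, 7080 of 7183 with ADAR2 and 9252 of 9433 in the control. That gene, HIST1H1C, a linker histone of somatic cells, stood at 44.1 CPM with ADAR2+SRSF9, 52.7 CPM with ADAR2 and 59.9 CPM in the control. The other 7 H1 genes, a set trimmed after its values were seen, had 1.75 CPM for ADAR2+SRSF9, 0.767 CPM for ADAR2 and 1.17 CPM for the control. Their ADAR2+SRSF9 ratio was 2.28 to ADAR2 (1.78 to 2.95) and 1.496 to control (1.20 to 1.86). HIST1H1E gave most of this, with 127 reads in the ADAR2+SRSF9 library, 73 in the ADAR2 library and 98 in the control.

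**Figure D2:**
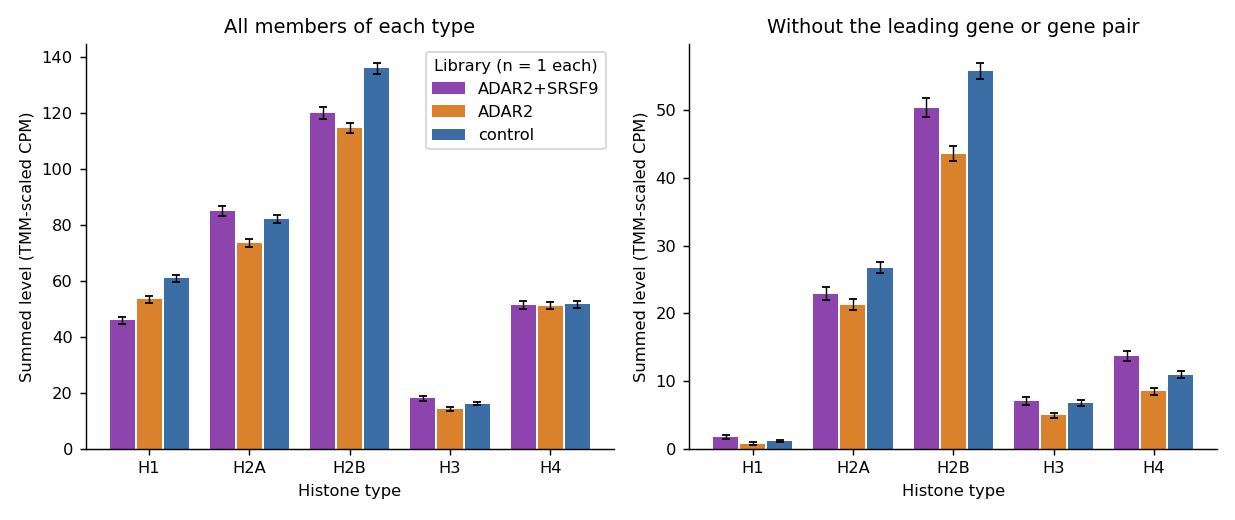
Summed level of the histone genes by type in the 3 libraries, as TMM-scaled CPM, with 95% Poisson counting intervals and 1 library per group; the left panel holds all members, the right panel leaves out the leading gene or near-identical pair of each type and has its own scale. The H4 bars are level on the left, at 51.6 CPM for ADAR2+SRSF9, 51.1 CPM for ADAR2 and 51.7 CPM for the control, and uneven on the right, at 13.7 CPM for ADAR2+SRSF9, 8.50 CPM for ADAR2 and 10.9 CPM for the control, and the order of the H1 bars differs between the panels.

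The ratios also differed with the level of the members. In the control, 9 members were at 10 CPM or more, 18 at 1 to under 10 CPM, 27 at 0.1 to under 1 CPM, 23 above 0 and under 0.1 CPM, and 12 had 0 reads. For the 9 at the top, ADAR2+SRSF9 over ADAR2 was 0.994 (0.978 to 1.01). The ratio was 1.20 (1.16 to 1.24) for the 18 below them, 1.55 (1.43 to 1.68) for the next 27 and 1.90 (1.46 to 2.47) for the 23 under 0.1 CPM. ADAR2 over control had the opposite order down to 0.1 CPM, at 0.902 (0.889 to 0.915), 0.837 (0.810 to 0.864) and 0.747 (0.693 to 0.805), and was 0.787 (0.608 to 1.02) in the lowest group. ADAR2+SRSF9 over control was 0.897 (0.883 to 0.911), 1.004 (0.970 to 1.04), 1.16 (1.08 to 1.24) and 1.49 (1.18 to 1.89), from the highest group to the lowest. Of the 12 with 0 reads in the control, 3 had any read elsewhere, 2 reads in all with ADAR2+SRSF9 and 3 with ADAR2.

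Grouping by the control's own level favours lower values in the other libraries at high levels and higher ones at low levels, so the groups were also made from the mean of the 3 libraries. From the highest group to the lowest, ADAR2 over control was then 0.913 (0.899 to 0.926), 0.818 (0.794 to 0.843), 0.712 (0.665 to 0.764) and 0.702 (0.530 to 0.924). ADAR2+SRSF9 over ADAR2 was 0.987 (0.970 to 1.004), 1.20 (1.16 to 1.24), 1.53 (1.42 to 1.65) and 1.55 (1.14 to 2.10). The order of the groups was thus the same for both ways of grouping in ADAR2+SRSF9 over ADAR2. The 25 members in the lowest of these groups had 95 reads together with ADAR2+SRSF9, 86 with ADAR2 and 141 in the control. ADAR2+SRSF9 over control moved less, at 0.901 (0.886 to 0.915), 0.984 (0.954 to 1.02), 1.09 (1.02 to 1.17) and 1.09 (0.828 to 1.42).

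**Figure D3:**
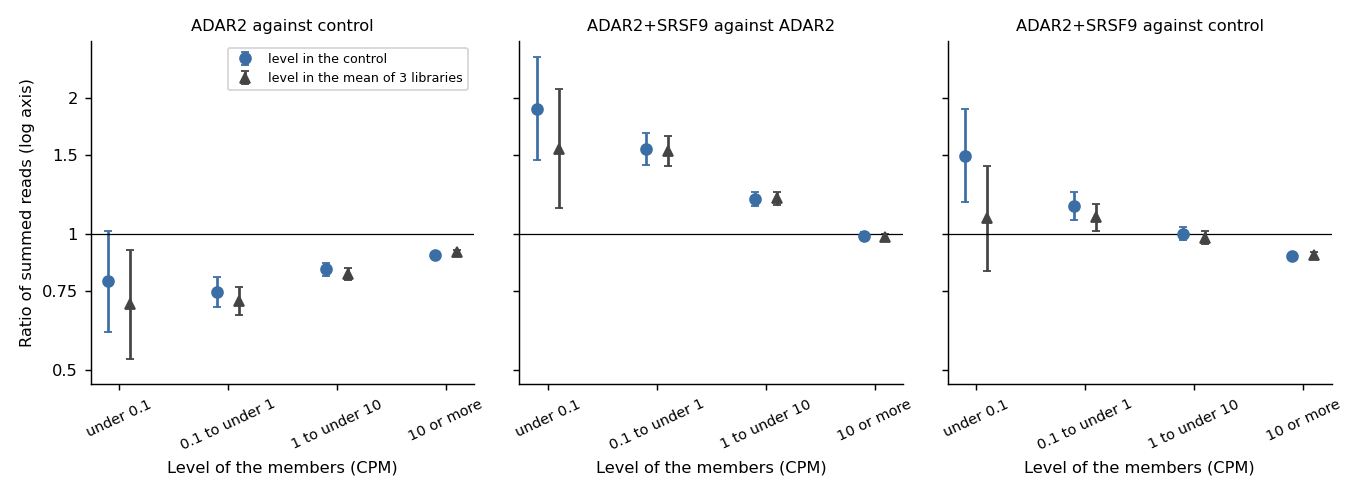
Ratio of summed reads of the histone genes (log axis, bars are 95% counting intervals) in 4 groups by level in CPM, for the 3 comparisons; circles group the genes by their level in the control and triangles by the mean of the 3 libraries. ADAR2 over control lies furthest below 1 in the groups under 1 CPM, ADAR2+SRSF9 over ADAR2 lies furthest above 1 there, and both are nearest to 1 at 10 CPM or more.

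Single genes differed with level as well. Among the 25 measured members, 20 (80%) were lower with ADAR2 than in the control, where 50.2% of the 16072 genes at that level were. The median log2 ratio was -0.10, against -0.00 over all of these genes. The 25 include both copies of the near-identical pairs named above, so they hold fewer distinct observations. With ADAR2+SRSF9, 18 of 25 were higher than with ADAR2 and 7 (28%) lower, where 46.3% of all genes were lower. The median log2 ratio was 0.16 against 0.01. Against the control the ADAR2+SRSF9 median was 0.01 (-0.03 on plain library totals), beside -0.01 for all genes. Among the 30 members at 0.1 to under 1 CPM, 25 (83.3%) were lower with ADAR2 than in the control. Of the 8113 genes at that level, 50.9% were. The median over these members was -0.56, against -0.01 for those genes. In the same members 27 of 30 were higher with ADAR2+SRSF9 than with ADAR2 and 3 (10%) lower, where 49.7% of the genes were lower. The median over these members was 0.86 against 0.00. Their median for ADAR2+SRSF9 against control was 0.21, against -0.01. The ADAR2 library held the lowest of the 3 values for 23 of these 30 members, and for 16 of the 25 measured ones. The share of all genes lowest in that library was not computed, so these last counts have no background beside them.

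**Figure D4:**
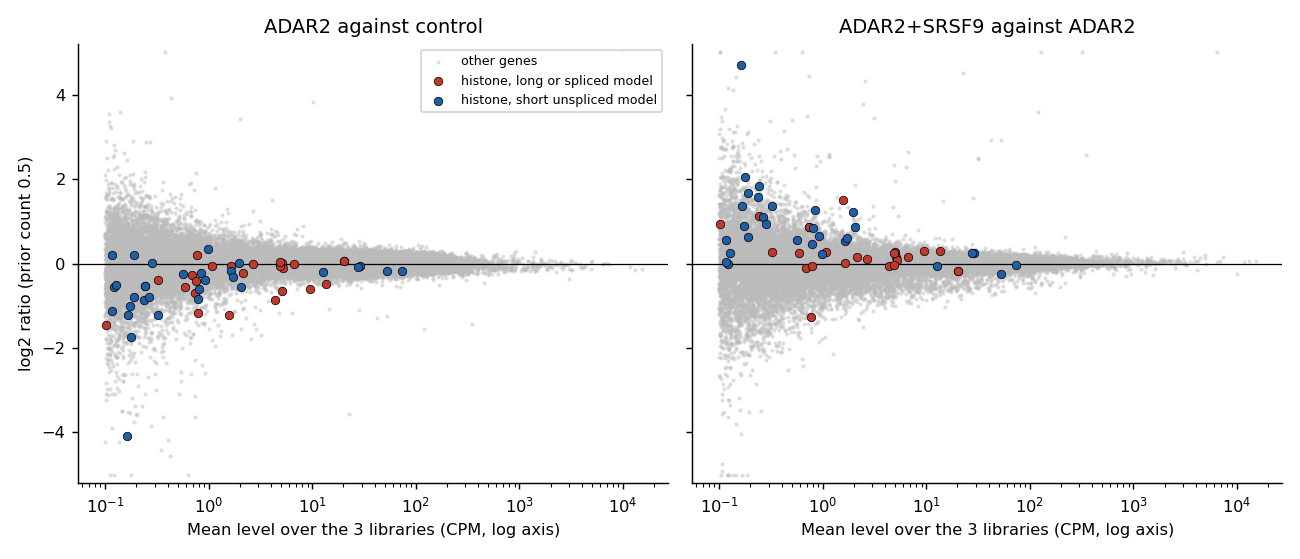
The log2 ratio of each gene against its mean level over the 3 libraries (CPM, log axis) for ADAR2 against control (left) and ADAR2+SRSF9 against ADAR2 (right); grey points are all other genes at 0.1 CPM or more, those beyond 5 drawn at 5, and coloured points are histone genes by annotated transcript. Histone genes under 1 CPM lie mostly below 0 on the left, with a median of -0.56, and mostly above 0 on the right, with a median of 0.86.

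At 0.1 to under 1 CPM, where counting error is larger, the background of calls was larger too. ADAR2 against control gave 8 of 30 members 2-fold lower (26.7%), against 7.28% of the 8113 genes, and 0 higher, against 4.55%. ADAR2+SRSF9 against ADAR2 gave 10 of 30 higher (33.3%), against 8.11%, and 1 lower, against 8.05%. ADAR2+SRSF9 against control gave 3 higher, 10% against 7.31%, and 2 lower, 6.67% against 9.76%. The last of these are near the shares of all genes. The 10 that were higher with ADAR2+SRSF9 than with ADAR2 were 2 of H1, 4 of H2A, 1 of H2B, 2 of H3 and 1 of H4, so every type was represented.

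HIST1H2AB had the largest ratio. It had 29 reads with ADAR2+SRSF9, 1 read with ADAR2 and 28 reads in the control. With 1 read in the ADAR2 library, the ADAR2 ratio to control was 0.0411 (0.001005 to 0.249) and the ADAR2+SRSF9 ratio to ADAR2 was 40.6 (6.73 to 1659), while ADAR2+SRSF9 over control was 1.67 (0.958 to 2.91). HIST1H1D, a linker histone gene, had 25 reads with ADAR2+SRSF9, 8 with ADAR2 and 32 in the control. HIST1H2AH had 41 reads with ADAR2+SRSF9, 22 with ADAR2 and 60 in the control. HIST1H2AL, also H2A, had 21 reads with ADAR2+SRSF9, 11 with ADAR2 and 30 in the control. In these 4 genes only the ADAR2 library was low, and the other libraries were within counting error of each other. They were named here after their values were seen, as were those of the next paragraph.

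Other members took other patterns. HIST1H1E, HIST1H2BL and HIST2H3D were high in the ADAR2+SRSF9 library against both others. HIST1H2BL had 42 reads with ADAR2+SRSF9, 16 with ADAR2 and 27 in the control, and HIST2H3D had 35 with ADAR2+SRSF9, 15 with ADAR2 and 15 in the control. HIST1H3E, with a long or spliced model, was low in both overexpressing libraries like HIST1H2AC. It had 51 reads with ADAR2+SRSF9, 75 with ADAR2 and 195 in the control. HIST1H2BE was low with ADAR2+SRSF9 alone, with 40 reads against 136 with ADAR2 and 137 in the control, and its annotated transcripts overlap another gene on the opposite strand.

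The members were also divided by annotated transcript into 30 with a long (1000 bases or more) or spliced model and 59 with short unspliced models only. Among the 64 members under a mean of 1 CPM, ADAR2 over control was alike in both, at 0.702 (0.632 to 0.780) for long or spliced and 0.719 (0.658 to 0.785) for short unspliced models. ADAR2+SRSF9 over ADAR2 was 1.13 (1.002 to 1.28) for the 14 long or spliced and 1.81 (1.65 to 1.99) for the 50 short unspliced. ADAR2+SRSF9 over control was 0.796 (0.711 to 0.891) for long or spliced and 1.30 (1.20 to 1.42) for short unspliced. The long or spliced values rest in part on HIST1H3E and HIST1H2BE. For the 12 that remain without them, chosen after their values were seen, ADAR2+SRSF9 over control was 0.988 (0.867 to 1.12), ADAR2+SRSF9 over ADAR2 was 1.44 (1.24 to 1.67) and ADAR2 over control was 0.687 (0.602 to 0.783). At 1 CPM or more the difference was small: ADAR2+SRSF9 over ADAR2 was 1.04 (1.02 to 1.07) for 16 long or spliced members and 1.02 (0.999 to 1.04) for 9 short unspliced ones. For the 7 of these short models that remain after HIST1H2BK and HIST1H1C it was 1.19 (1.16 to 1.23). The division is that of the annotation, not of the RNA in these cells.

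Values for other RNAs that carry no poly(A) tail are given beside these. Of 23 listed, 8 were measured. All 23 together summed to 237 CPM with ADAR2+SRSF9, 56.2 CPM with ADAR2 and 86.9 CPM in the control. The largest part with ADAR2+SRSF9 came from RN7SL1 and RN7SL2. RN7SL1 had 67.9 CPM with ADAR2+SRSF9, 12.1 CPM with ADAR2 and 14.4 CPM in the control. RN7SL2 had 68.3 CPM with ADAR2+SRSF9, 12.2 CPM with ADAR2 and 14.3 CPM in the control. Their ADAR2 ratios to control were 0.839 (0.786 to 0.895) for RN7SL1 and 0.855 (0.802 to 0.912) for RN7SL2. All 8 were lower with ADAR2 than in the control (median log2 ratio -0.60) and all 8 were higher with ADAR2+SRSF9 than with ADAR2 (median 2.54). All 8 were also higher with ADAR2+SRSF9 than in the control (median 1.94). There the measured histone genes had a median of 0.01 and those at 0.1 to under 1 CPM a median of 0.21. The 8 were taken by mean level, so a high value in 1 library helped an RNA to enter. SCARNA2 had 2.32 CPM with ADAR2+SRSF9, 0.380 CPM with ADAR2 and 0.738 CPM in the control. Among RNAs below that level, RNU6ATAC with ADAR2+SRSF9 was at 0.577 of the control (0.346 to 0.933). RNU1-1 there was at 2.76 (2.15 to 3.57), TERC at 2.53 (1.75 to 3.70), SCARNA10 at 2.05 (1.13 to 3.76) and RNU4-1 at 4.14 (1.65 to 11.7). No other RNA below that level had an interval that excluded 1, so RNU6ATAC alone was lower beyond counting error. RN7SK, a small nuclear RNA that holds back transcription elongation, had 4148 reads with ADAR2+SRSF9, 253 with ADAR2 and 3438 in the control. RMRP, the RNA of the RNase MRP enzyme, had 607 reads with ADAR2+SRSF9, 42 with ADAR2 and 167 in the control, and RPPH1, the RNA of RNase P, had 705 with ADAR2+SRSF9, 90 with ADAR2 and 223 in the control. SNORD3A, a small nucleolar RNA, moved least among the 8 in ADAR2+SRSF9 over ADAR2, with 31.97 CPM with ADAR2+SRSF9, 23.3 CPM with ADAR2 and 26.8 CPM in the control. In this list RNU7-1, the RNA that guides histone 3′ end cleavage, and RNU2-2P had 0 reads in every library. How messenger RNA was enriched is not given in the sources used here, and the part of these RNAs' shift in the histone result was not tested.

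**Figure D5:**
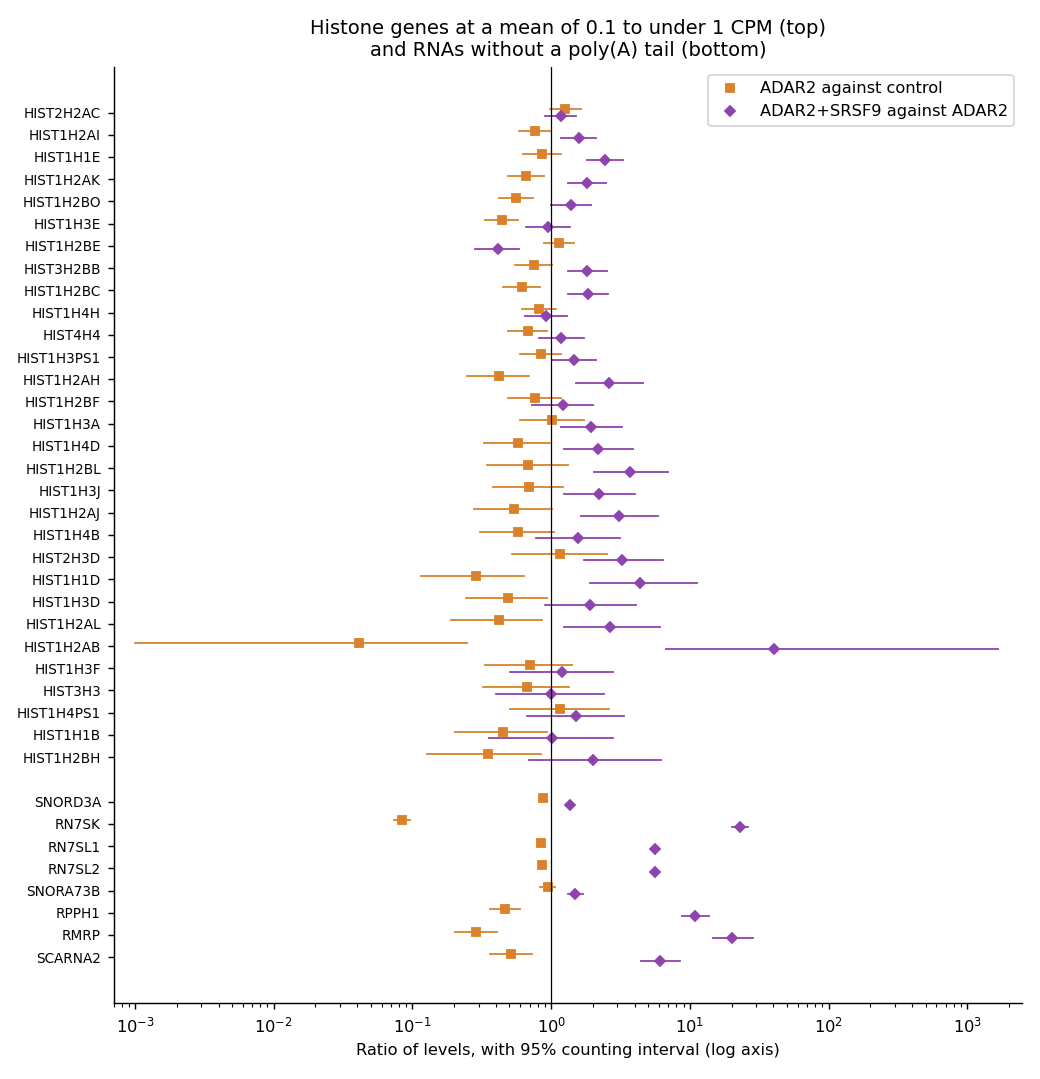
Ratio of levels with its 95% counting interval (log axis) for the 30 histone genes at a mean of 0.1 to under 1 CPM, and below them the 8 measured RNAs without a poly(A) tail; squares are ADAR2 against control and diamonds ADAR2+SRSF9 against ADAR2. Most squares lie left of 1 (25 of 30 histone genes and 8 of 8 other RNAs) and most diamonds right of 1 (27 of 30 and 8 of 8).

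Genes that act on histone RNA were listed too. SLBP, which binds the stem-loop, had 95.9 CPM with ADAR2+SRSF9, 88.9 CPM with ADAR2 and 93.9 CPM in the control, so that ADAR2 was at 0.947 of the control (0.924 to 0.970) and ADAR2+SRSF9 at 1.08 times ADAR2 (1.05 to 1.11). Of the 26 listed genes of histone pre-mRNA processing, 25 were measured and 0 differed by 1.5-fold in any comparison. Over all genes at that level, the shares past 1.5-fold in either direction lay between 0.622% and 2.53%, so counts of 0 in lists this short are near the background. The count was also 0 for the 19 genes of histone mRNA turnover, the 14 measured of 15 genes of histone gene transcription and the 21 measured of 22 histone chaperones. It was 0 as well for the 28 S phase genes, which are active in the same phase of the cell cycle, with median log2 ratios of -0.04 for ADAR2 against control, 0.02 for ADAR2+SRSF9 against ADAR2 and 0.00 for ADAR2+SRSF9 against control. In these S phase genes, 20 of 28 were lower with ADAR2 than in the control, where 50.2% of all genes were, and 10 of 28 were lower with ADAR2+SRSF9 than with ADAR2, where 46.3% were.

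Most replacement histones are made throughout the cell cycle from polyadenylated messages. Of 12 genes listed as replacement histones, all measured, H3F3C alone passed 1.5-fold, lower with ADAR2+SRSF9 than in both other libraries. It had 5.87 CPM with ADAR2+SRSF9, 9.37 CPM with ADAR2 and 8.97 CPM in the control, which is 0.627 of ADAR2 (0.566 to 0.693) and 0.655 of the control (0.592 to 0.723). The median log2 ratio over the 12 was -0.07 for ADAR2 against control, 0.05 for ADAR2+SRSF9 against ADAR2 and 0.02 for ADAR2+SRSF9 against control.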

How the data were processed

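Each of the 3 groups gave 1 RNA sequencing library, prepared from total RNA with a directional kit, per the labels' protocols. The values the authors deposited are raw read counts for each gene. The submitters' processing notes name hg19, STAR, Picard, GATK and SAMtools; which program counted the reads, and with what strand option, is not given in the sources used here. TMM scaling used edgeR 4.0.16 in R 4.3.3. Ratios are of scaled CPM, with exact 95% Clopper-Pearson intervals; log2 ratios add a prior count of 0.5. A member was called when its mean CPM was 1 or more, its ratio 2-fold (or 1.5-fold, where said) and its interval excluded 1. Type, length and stem-loops came from GENCODE 29 (GRCh38, not the authors' build; all 89 matched by symbol, 52 also by identifier), promoters from RefSeq. Full values are given for the 12 members with the highest mean CPM and those called at 2-fold; listed genes are named from 1.5-fold. The members and lists were chosen with earlier results of these data known. The calculation was tested on simulated data. Alternatives were DESeq2 1.42.0 size factors, plain totals, upper-quartile scaling, totals without mitochondrial genes, ADARB1 and SRSF9, other level filters, a prior count of 5, members without pseudogenes, GC trend removal and sums without the top member. Python 3.11.15 with numpy 2.4.6, pandas 2.3.3, scipy 1.17.1 and matplotlib 3.10.9 did the rest. Read depths per library stand in the report.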

Additional observations from a re-analysis of the deposited data

How the results depend on the processing

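No paired analysis was possible because each group had 1 library. Of 255 alternative values, 206 stayed within the counting interval or within 1.5 times the count, 45 moved and 4 changed direction. A change of direction was counted only where the counting interval of the main value excluded 0. Other values whose sign turned are among the rest. Lower members with ADAR2 against control were 1, but 11 with no filter, 9 at 0.1 CPM or more, 0 at 10 CPM or more and 4 at 1.5-fold, with a median log2 ratio of -0.38 both unfiltered and at 0.1 CPM. Higher members with ADAR2+SRSF9 against ADAR2 were 2, but 14 with no filter, 12 at 0.1 CPM, 0 at 10 CPM and 4 at 1.5-fold, and lower ones 1 unfiltered and 1 at 0.1 CPM, with a median of -0.048 at 10 CPM. ADAR2+SRSF9 against control gave 7 higher unfiltered, 4 at 0.1 CPM and 0 at 10 CPM, and 4, 2 and, at 1.5-fold, 1 lower. The median of that comparison at 10 CPM was -0.149.

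Summed log2 ratios over all members moved as follows. ADAR2 against control was -0.20 with 1 copy of each near-identical pair, an alternative chosen after seeing the data. ADAR2+SRSF9 against ADAR2 was 0.017 with plain totals, 0.089 without HIST1H2BK and 0.038 over measured members. ADAR2+SRSF9 against control was -0.16 with plain totals, -0.087 without HIST1H2BK and -0.15 with 1 copy.

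Of 120 type sums, 17 moved and 4 changed direction, counted in the same way. Without the top gene, ADAR2 against control was -0.61 (H1), -0.20 (H2A), -0.35 (H2B), -0.27 (H3, as with 1 copy) and -0.073 (H4), and -0.094 for measured H3. ADAR2+SRSF9 against ADAR2 without the top gene turned to 1.19 (H1), and was 0.21 (H2B) and 0.13 (H4; 0.10 with 1 copy); with plain totals it was 0.16 (H2A) and 0.019 (H2B). ADAR2+SRSF9 against control without the top gene turned to 0.58 (H1) and -0.020 (H2A; -0.00051 with 1 copy), and was -0.15 (H2B) and 0.058 (H4; 0.050 with 1 copy); with plain totals it was 0.0086 (H2A) and -0.23 (H2B). These alternatives leave out or rescale reads by construction.

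Long or spliced members under 1 CPM without HIST1H3E and HIST1H2BE, chosen after seeing the data, had log2 ratios of 0.52 for ADAR2+SRSF9 against ADAR2 and -0.018 for ADAR2+SRSF9 against control.

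Depth limits single members under 1 CPM, many of which had under 50 reads. How reads of near-identical copies were counted is not given in the sources used here.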
